A study of Mus musculus with 9 samples.

Results

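RNA from alpha-enriched islet cells was compared with RNA from delta-enriched islet cells, with 3 sequencing libraries of each subset, 6 of the 9 libraries in the series. The libraries were chosen by their subset label alone. All came from C57B/L6 mice of 12 weeks of age, for which the labels name no other genotype and no treatment. Islets were picked by hand, kept in culture overnight under the same conditions, dispersed to single cells and sorted by surface staining. The alpha-enriched subset was low for CD24 and negative for CD71, the transferrin receptor. The delta-enriched subset was high for CD24, and its label gives no CD71 gate. A beta-enriched subset, low for CD24 and positive for CD71, gave the other 3 libraries, which served here only to estimate the spread between replicates and as a reference level. The labels do not say whether replicates came from separate mice, so the p-values measure the spread between these samples, which may be technical. In such bulk libraries, fewer cells of a type and less RNA per cell cannot be told apart.

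Alpha cells store glucagon in dense-core granules and release it when blood glucose is low, after amino acids or under adrenergic drive. Delta cells release somatostatin, which restrains glucagon and insulin release, and they send long processes past their neighbours. Both are electrically excitable: ATP-sensitive potassium channels set the resting potential, sodium and calcium channels carry the action potential, and calcium entry triggers granule fusion. Endocrine cells of the islet therefore use many genes first known from neurons.

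The libraries held 5663141 to 8945105 expected counts. Spearman correlations over genes were 0.974 to 0.976 within the alpha subset, 0.947 to 0.96 within the delta subset and 0.888 to 0.903 between them. Of the alpha cell markers tested, 12 of 12 were higher in alpha, and 6 of the 7 tested delta cell markers were lower in alpha, so both subset names matched their markers. Delta replicate 3 stood apart: 16 acinar (digestive enzyme) transcripts summed to 2770 CPM (counts scaled to the same library total, with TMM factors) there, against 236 and 203 in delta replicates 1 and 2 and 361, 64.7 and 86.5 in the alpha replicates (exact permutation test, two-sided p = 0.3, where 0.1 is the smallest this design allows). The total of called genes and the counts of several lists are therefore also given without delta replicate 3. Endothelial, immune, erythroid and autonomic neuron markers were at or near 0: each of these lists summed to at most 13.5 CPM in any of the 6 libraries. Markers of pancreatic polypeptide (PP) cells, 3 genes, summed to 3240, 3830 and 2750 CPM in alpha and 4360, 6280 and 4680 in delta. In the beta-enriched libraries they summed to 90.4, 64.3 and 62.4 CPM. Of these genes Sertm1 was higher in alpha, Pyy was lower and Ppy did not pass the test. The part of PP cells in the differences between the subsets was not tested.

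Of 15896 genes tested with edgeR's quasi-likelihood test, 3868 (24.3%) differed at a Benjamini-Hochberg adjusted p under 0.05. In alpha, 1748 genes (11.0%) were higher and 2120 (13.3%) were lower, and the median log2 difference of all tested genes was -0.01. A log2 difference of 1 is a 2-fold change, and differences are given as alpha minus delta. At least a 2-fold difference was reached by 738 of the higher and 1263 of the lower genes, so the larger differences were more often falls in alpha. On the log2(TPM + 1) scale, where TPM is a length-normalised transcript abundance, the split turned: 842 genes were higher and 767 lower, and the median of all genes stood 0.152 above 0. Fewer genes passed on that scale, and 73 of 303 genes followed by name lost their call there. Against a required difference of 2-fold, 379 genes were higher and 660 lower. In 5737 genes (36.1%) the 3 libraries of one subset all lay above the 3 of the other. Without delta replicate 3, 3729 of 16600 tested genes (22.5%) differed, 1766 higher and 1963 lower. Of the 3868 genes, 3242 were called the same way without that library, 626 were not called or not tested, and 0 were called in the opposite direction.

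The genes with the largest falls in alpha were near absent from the alpha libraries. Ptprz1 (ENSMUSG00000068748, chr6:22875502-23052916, + strand), a receptor tyrosine phosphatase of neural and glial cells, had 0.57, 0.126 and 1.98 CPM in alpha replicates 1 to 3. In delta replicates 1 to 3 it had 343, 358 and 364 CPM, a log2 difference of -8.69 (SE 0.39, adjusted p = 3.27e-06). Bmp3 (ENSMUSG00000029335, chr5:98854415-98884396, + strand), an atypical bone morphogenetic protein, had 0.57, 0.126 and 0.847 CPM in alpha and 239, 224 and 183 in delta. For both genes every delta library lay far above every alpha library, and in the beta-enriched libraries Bmp3 averaged 1.32 CPM and Ptprz1 had no counts. Spock3 (ENSMUSG00000054162, chr8:62951009-63357103, + strand), a matrix proteoglycan of the testican family, had 3 counts in the alpha libraries together and 1340 in the delta libraries, a ratio of 490 with a 95% counting interval of 167 to 2380. Intervals and floors from counts cover counting error only. Kcnd2, a fast-inactivating potassium channel, had 0, 0 and 0.282 CPM in alpha and 18.8, 52.5 and 34.2 in delta, a ratio of 412 (114 to 3400).

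Further genes near absent from alpha had narrower roles. Ppp1r17, an inhibitor of protein phosphatases known from Purkinje cells, had no count in any alpha library and 13, 15.3 and 14.8 CPM in delta. Set against a floor of 3 counts over the alpha libraries, it was at least 114-fold lower in alpha. Ly6h, a membrane-anchored modulator of nicotinic receptors, was at least 107-fold lower, and Syt6, a synaptotagmin, at least 84.2-fold lower, also with no alpha count. Fermt1, the integrin activator kindlin-1, had 1 count in alpha and 497 in delta, a ratio of 545 (97.3 to 21600). For Cer1, a secreted antagonist of BMP and Nodal, the ratio was 398 (71 to 15800), and for Cbln4, a secreted synapse organiser, 305 (54.2 to 12100), each with 1 alpha count. Cacna2d2, an accessory subunit of voltage-gated calcium channels, had nearly equal delta values of 56.8, 57.2 and 56.5 CPM against 0, 0.252 and 0.705 in alpha. The remaining gene of this set, Cd24a, encodes the surface protein used for the sort and is no result: 4.1, 4.41 and 7.9 CPM in alpha against 973, 812 and 819 in delta. With so few alpha counts the size of these falls rested on single libraries. Without alpha replicate 3, the log2 differences of Ptprz1, Fermt1, Kcnd2, Cer1 and Cacna2d2 were -9.88, -10.38, -10.99, -9.93 and -8.69. Without alpha replicate 1, those of Spock3, Kcnd2, Cbln4 and Cacna2d2 were -9.5, -7.84, -9.52 and -6.86. All of these genes stayed past the test with either library left out.

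**Figure D1:**
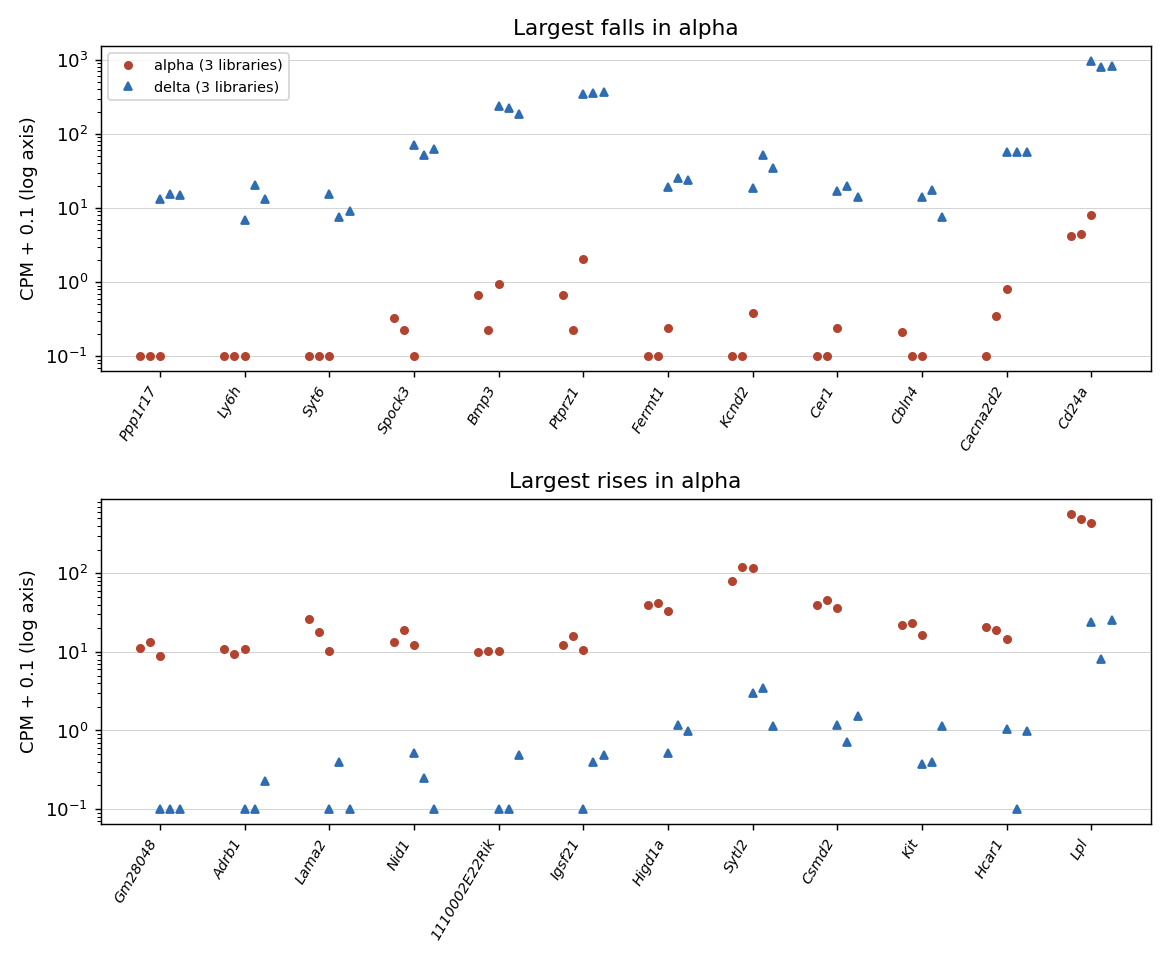
TMM-scaled CPM (plus 0.1, log axis) in each alpha (circles) and delta (triangles) library for the 12 protein-coding genes with the largest falls and the 12 with the largest rises in alpha, marker and iron genes left out. The 24 genes were picked so that the 3 libraries of one subset lie above the 3 of the other. The low side is often at the floor of the axis, for example Ppp1r17 with 0 CPM in alpha.

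The largest rises in alpha were smaller and held receptors, matrix genes and genes of energy use. Adrb1 (ENSMUSG00000035283, chr19:56722199-56733113, + strand), the beta-1 adrenergic receptor, had 10.9, 9.44 and 10.7 CPM in alpha and 0, 0 and 0.128 in delta, a ratio of 225 (40.1 to 8940). Higd1a (ENSMUSG00000038412, chr9:121848563-121858362, - strand), a hypoxia-induced protein of the inner mitochondrial membrane, had 39.8, 42.1 and 33.2 CPM in alpha against 0.41, 1.06 and 0.899 in delta. Its log2 difference was 5.58 (SE 0.33, adjusted p = 1.05e-09). Sytl2 (ENSMUSG00000030616, chr7:90302252-90410719, + strand), a Rab27 effector that tethers granules to the plasma membrane, had 79.3, 119 and 115 CPM in alpha and 2.87, 3.33 and 1.03 in delta, a 43.8-fold difference (adjusted p = 9.77e-10). In the beta-enriched libraries Sytl2 averaged 0.267 CPM, so its high level was measured in the alpha subset alone among the 3 subsets. Kit, the receptor for stem cell factor, had 22, 23.4 and 16.2 CPM in alpha against 0.273, 0.302 and 1.03 in delta. Hcar1, the lactate receptor, had 20.4, 18.9 and 14.5 CPM against 0.956, 0 and 0.899. Lpl, lipoprotein lipase, had 576, 489 and 435 CPM against 24, 8.01 and 25.3, a 25.9-fold difference.

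Adhesion and matrix genes made up much of the rest. Csmd2, a large transmembrane protein with complement-like repeats, had 39.4, 45 and 35.8 CPM in alpha and 1.09, 0.605 and 1.41 in delta. Igsf21, an immunoglobulin-like synaptic adhesion protein, had 12.2, 15.6 and 10.6 CPM against 0, 0.302 and 0.385. The basement membrane genes Lama2, a laminin chain, and Nid1, nidogen 1, had 25.9, 17.9 and 10.3 CPM and 13.4, 19.1 and 12 CPM in alpha. In delta, Lama2 had 2 counts in all (ratio 202, interval 55.5 to 1670), and Nid1 had 0.41, 0.151 and 0 CPM. Beside these matrix genes, a list of 9 mesenchymal markers summed to 13.2, 52 and 16.6 CPM in alpha and 3.41, 3.63 and 9.12 in delta. Col1a2 was the called member, with 9.91, 20.7 and 8.61 CPM in alpha and 1.91, 0 and 1.41 in delta (log2 difference 3.51, and 4.1 without delta replicate 1), and the part of such cells in the rise of Lama2 and Nid1 was not tested. 1110002E22Rik, a gene with no assigned function, had 241 counts in alpha and 3 in delta, a ratio of 73.3 (24.8 to 358). Gm28048 had no delta count and was at least 80.3-fold higher in alpha, but its model spans Commd1 and B3gnt2 on the same strand, and reads there may have been assigned to any of them. Single delta libraries set the size of several of these rises: without delta replicate 3 the log2 differences of Adrb1, 1110002E22Rik, Igsf21 and Kit were 9.22, 9.19, 6.31 and 6.08. Without delta replicate 2 that of Lama2 was 10.05, and without delta replicate 1 that of Nid1 was 7.42.

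Among abundant transcripts, the rises in alpha were led by a protease of insulin-like growth factor signalling and by a gene of zinc loading. Pappa2 (ENSMUSG00000073530, chr1:158711727-158980490, - strand), which cleaves IGF-binding proteins, had 1580, 1520 and 1140 CPM in alpha and 115, 80.1 and 96.6 in delta. Slc30a8, the transporter that loads zinc into granules, had 972, 874 and 855 CPM against 54.2, 27.7 and 53.2. Sphkap, an anchoring protein for protein kinase A, was 5.64-fold higher in alpha, and Wnk3, a kinase that regulates chloride transport, was 8.7-fold higher. Wnk3 values were 644, 627 and 643 CPM in alpha and 86.2, 63.2 and 70.7 in delta. Il1r1, the interleukin-1 receptor, was 3.94-fold higher in alpha and averaged 1060 CPM in the beta-enriched libraries. Rnase4 was 5.48-fold higher, but its model overlaps Ang on the same strand. Neurod1, Oat, Pcp4, Per3 and Tapbp, described further on, each overlap another gene on the same strand too. Genes on the opposite strand overlap Adora1, B2m, Bmp6, Cacna1h, Dbp, Nr1d1, Sstr2, Mest, Neurog3, Fdft1 and Iapp, among others. Reads there may have been assigned to any of the overlapping genes.

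Falls among abundant transcripts were led by granule proteins and neuronal membrane proteins. Chgb, the granin chromogranin B, had 593, 519 and 566 CPM in alpha and 2380, 1910 and 2290 in delta, a 3.92-fold fall. Scg2, the granin secretogranin II, had 1060, 924 and 943 CPM against 3320, 2590 and 2700, a 2.94-fold fall. Sez6l, a neuronal transmembrane protein cleaved by beta-secretase, had 40.1, 39.9 and 72.9 CPM against 654, 770 and 754. Adam22, a catalytically inactive ADAM protein that binds the secreted LGI proteins, was 6.98-fold lower in alpha. App, the amyloid precursor protein, was 2.16-fold lower, with 330, 311 and 274 CPM in alpha and 718, 679 and 583 in delta. Clu, the extracellular chaperone clusterin, varied most, with 52.9, 72.8 and 95.7 CPM in alpha and 309, 478 and 641 in delta. These 6 genes were picked only from genes whose groups did not overlap.

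Counts of called genes were then taken over 39 lists of genes by function, and read against the 11.0% of all tested genes that were higher and the 13.3% that were lower in alpha. Of 25 tested genes of neurites and growth cones, 1 was higher in alpha and 12 were lower (52% called, median log2 difference -0.74). Of 20 synapse organisers, 6 were higher and 10 lower (median -0.6), of 27 axon guidance genes 4 and 13 (median -0.76), and of 25 cell adhesion genes 7 and 13 (median -0.76). Without delta replicate 3 the counts were 1 and 11, 5 and 11, 4 and 13, and 8 and 13, while the medians of the guidance and adhesion lists were -0.34 and -0.46. With no filter on low counts, the adhesion median was 0.2. On the log2(TPM + 1) scale the neurite, synapse organiser, guidance and adhesion lists had 1 and 9, 4 and 4, 5 and 7, and 5 and 12 called genes, with medians of -0.37, -0.35, -0.23 and -0.49, so the synapse organisers were even in number there. Of 8 autonomic neuron markers, 6 were at 0 in all 6 libraries and the whole list summed to at most 0.41 CPM, while a Schwann cell list summed to 11.1, 16.4 and 13.5 CPM in alpha and 29.8, 26.5 and 15.2 in delta.

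**Figure D2:**
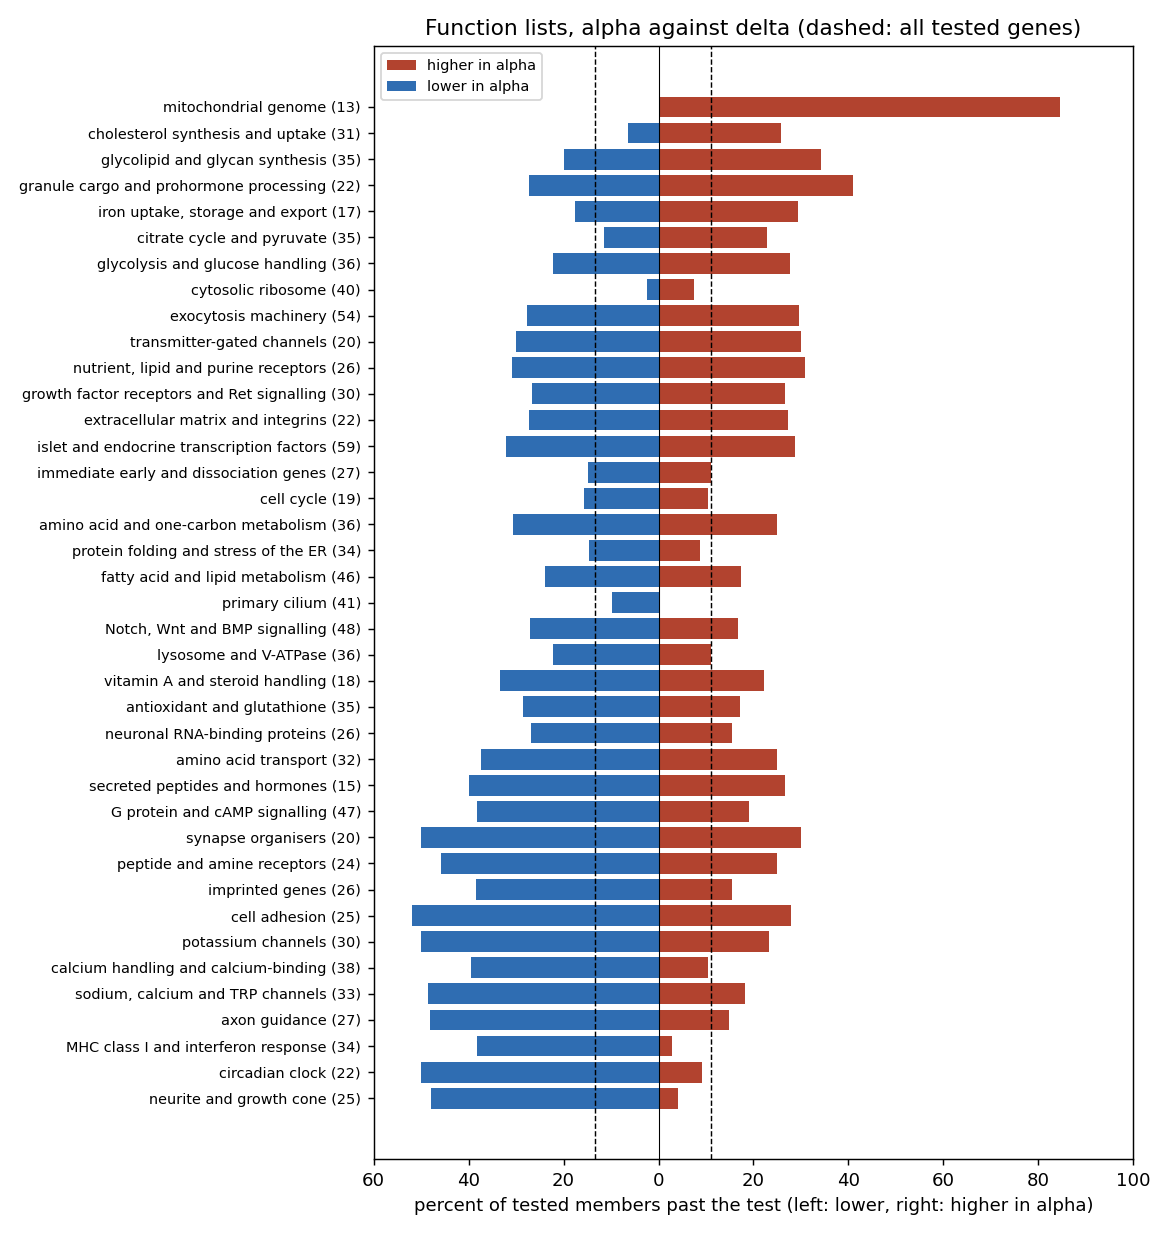
Percent of the tested members of each function list that were higher (right) or lower (left) in alpha at an adjusted p under 0.05, with the percent of all tested genes as dashed lines (11.0 higher, 13.3 lower) and the number of tested members beside each name. The neurite, axon guidance, ion channel, clock and interferon lists extend mainly to the left and the mitochondrial genome list only to the right, with 11 of 13 members higher.

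Within these lists the delta-high members covered the growing and the mature neuronal surface. Genes named from here on without being among the leading members of a list by p were named after their values were seen. Gap43, a growth cone protein, had 0.911, 0.252 and 0.705 CPM in alpha and 35.2, 43.1 and 30.7 in delta. Gpm6a, a membrane glycoprotein that promotes filopodia, had 3.76, 4.41 and 6.77 CPM against 123, 119 and 121. The microtubule proteins Dcx (doublecortin) and Mapt (tau) differed by -2 and -2.69 on the log2 scale, and neither overlapped between the groups. Cnr1, the cannabinoid receptor that guides and silences axons, had 1.14, 0.504 and 1.55 CPM in alpha, 20.5, 25.3 and 24.4 in delta and a beta-enriched mean of 31.5, so its low level was measured in the alpha subset alone among the 3. The 1 member higher in alpha was Dpysl2, a collapsin response mediator, by 0.35 on the log2 scale, a call lost without any 1 of alpha replicates 1 to 3 or delta replicate 1.

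Synapse organisers differed member by member. Slitrk6, a leucine-rich adhesion protein, had 15.6, 13.7 and 16.9 CPM in alpha and 253, 199 and 194 in delta, and the scaffold Shank2 had 2.62, 1.89 and 1.98 against 37, 44.6 and 45.6. The opposite held for Clstn2 (calsyntenin 2), with 40, 50.2 and 43 CPM in alpha and 1.91, 3.02 and 3.34 in delta. It also held for Lrrtm4, a postsynaptic partner of neurexins, which had 7.86, 11.5 and 7.9 CPM in alpha and no count in delta (at least 65.7-fold), and for Slitrk1 (at least 38.4-fold). Members of 1 family thus stood on both sides: Slitrk6 in delta and Slitrk1 in alpha, Clstn1 and Clstn3 in delta (log2 differences -1.2 and -1.35) and Clstn2 in alpha.

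Guidance receptors and ligands also differed in both directions, and not always by family. The Eph receptor Epha7 was higher in alpha, with a delta mean at 38.5% of its alpha mean. Ephb2 was higher in delta, with an alpha mean at 57% of its delta mean. The netrin Ntn4 was higher in alpha, with a delta mean at 8.41% of its alpha mean. These netrin receptors were higher in delta: Unc5c had 51.4, 61.2 and 62.5 CPM in alpha and 329, 337 and 331 in delta, and Unc5b differed by -2.76. The Slit receptors named here were higher in alpha: Robo2 had 406, 413 and 413 CPM in alpha and 107, 87.5 and 90.3 in delta, and Robo1 had 25.6, 21.9 and 26.1 against 0, 1.36 and 3.73, a log2 difference of 3.81 (3.22 without delta replicate 1 and 5.21 without delta replicate 3). Slit1, a ligand of these receptors, had no count in alpha and was at least 21.5-fold lower there. The ephrins Efna5 and Efnb3 were higher in delta, with Efna5 at 122, 113 and 95.5 CPM against 9.57, 14.4 and 16.8 in alpha and Efnb3 at 47.1, 66.2 and 56.3 against 2.05, 4.53 and 2.54. Nrp2, a semaphorin co-receptor, had 0.797, 1.89 and 0.705 CPM in alpha and 28.4, 38.1 and 31.9 in delta, and Sema3c, one of its ligand family, differed by -3.87. In adhesion, the cadherins of epithelial and neural junctions, Cdh1 and Cdh2, were lower in alpha by 1.13 and 1.33 on the log2 scale. Pcdh15, a cadherin known from hair cells, was lower by 3.38 with 22.3, 32.9 and 33.3 CPM in alpha and 329, 311 and 280 in delta, and Ncam2 was lower by 3.18.

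Of 30 potassium channel genes, 7 were higher in alpha and 15 lower (median -0.46). Of 33 sodium, calcium and TRP channel genes, 6 were higher and 16 lower (median -0.52). Without delta replicate 3 the counts were 7 and 14, and 4 and 15. On the log2(TPM + 1) scale the potassium channels were nearly even, 6 higher and 7 lower (median -0.28), and the other channels gave 3 and 9 (median -0.26). Both subunits of the ATP-sensitive channel were lower in alpha by modest amounts: Kcnj11, the pore, had 71.9, 68.9 and 66 CPM against 93.5, 99 and 90.2, and Abcc8, the sulfonylurea receptor, 694, 794 and 757 against 1020, 1390 and 1140. Kcnc2, a fast delayed rectifier, had 0.797, 3.65 and 1.69 CPM in alpha and 76.9, 80.7 and 84.8 in delta (log2 difference -5.31, and -6.03 without alpha replicate 2). Dpp6, an accessory subunit of the Kcnd channels, had 8.54, 17.5 and 8.75 CPM against 223, 246 and 194, so the Kcnd2 pore and this partner were both delta-high. Kcnb2, a slow delayed rectifier, was lower in alpha by 1.47 on the log2 scale.

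The potassium channels higher in alpha were of other families. Kcnh6, an ERG channel, had 94.6, 103 and 97.8 CPM in alpha and 2.46, 3.33 and 5.91 in delta, a log2 difference of 4.64 (SE 0.2, adjusted p = 3.68e-11). Kcnn3, a small-conductance calcium-activated channel, was higher by 2.48, and Kcnk3, an acid-sensitive leak channel, by 1.71, with 54.5, 61.8 and 59.3 CPM against 14.1, 18.4 and 21.2. Kcnj3, a G protein-gated inward rectifier, had 72.5, 66.1 and 49.9 CPM in alpha and 9.83, 12.2 and 9.89 in delta, and its partner Kcnj6 was higher by 0.75.

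All 3 low-voltage-activated (T-type) calcium channel genes were higher in delta. Cacna1h (Cav3.2) had 0.57, 1.89 and 2.12 CPM in alpha and 89.3, 132 and 107 in delta, a log2 difference of -6.19 (SE 0.29, adjusted p = 1.22e-10). Cacna1g and Cacna1i differed by -2.4 and -3.24, at 14.3 to 28.1 and 6.83 to 16 CPM in delta. The high-voltage-activated pore genes differed far less: Cacna1c and Cacna1d were higher in alpha by 0.4 and 0.26, and neither passed the test without delta replicate 3, alpha replicate 2 or alpha replicate 3, while Cacna1a and Cacna1b were lower by 0.64 and 0.99. Sodium channel genes Scn9a and Scn3a were lower in alpha by 1.25 and 0.64, and the accessory subunit gene Scn3b had 9.11, 17.8 and 11.3 CPM in alpha against 65.8, 67.3 and 54.4. The pacemaker channel gene Hcn4 was lower in alpha by 2.86.

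**Figure D3:**
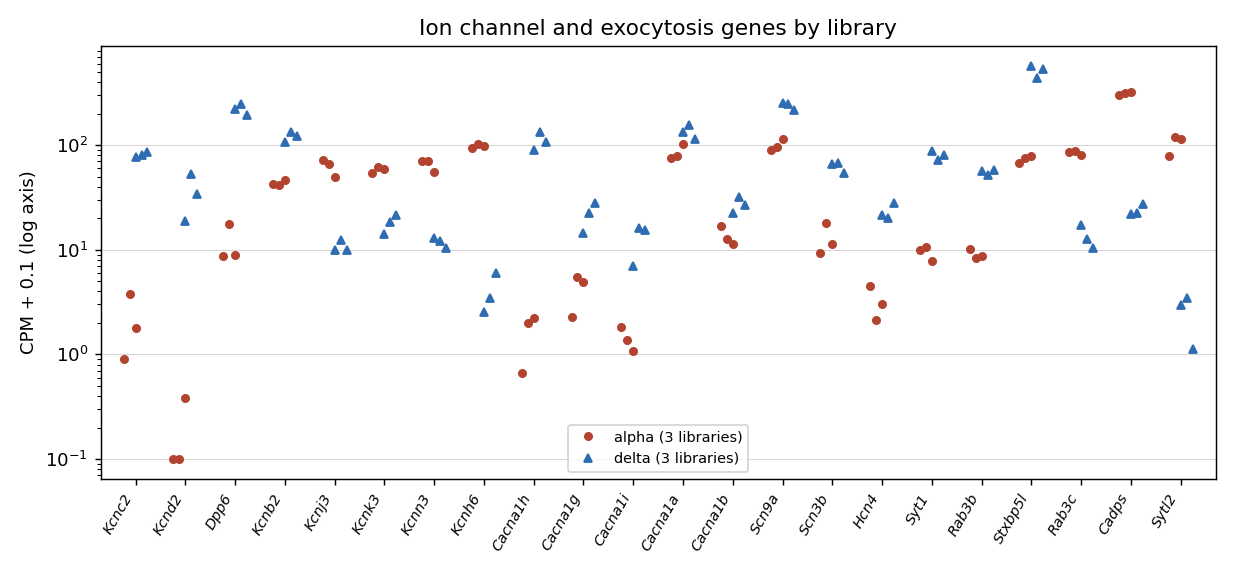
TMM-scaled CPM (plus 0.1, log axis) per library for potassium, calcium and sodium channel genes and exocytosis genes named in the text, alpha circles and delta triangles. The T-type calcium channel genes Cacna1h, Cacna1g and Cacna1i lie higher in delta and Kcnh6, Kcnk3, Sytl2, Cadps and Rab3c higher in alpha, without overlap.

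Of 54 genes of the exocytosis machinery, 16 were higher in alpha and 15 lower (median -0.02; 15 and 14 without delta replicate 3), so the list did not lean either way, but paralogues differed sharply. Cadps (ENSMUSG00000054423, chr14:12372563-12823079, - strand), which primes dense-core granules, had 299, 314 and 318 CPM in alpha and 22, 22.4 and 27 in delta, a log2 difference of 3.7 (SE 0.11, adjusted p = 4.95e-13). Rab3c was higher in alpha by 2.67, with 86.4, 87.9 and 81 CPM against 17.1, 12.7 and 10.3, and Rab3b lower by 2.62, with 10.1, 8.18 and 8.61 against 56, 52.2 and 57.9. Rab27b, the Rab that Sytl2 binds, was higher in alpha by 2.08 (2.75 without delta replicate 3). Stxbp5l (ENSMUSG00000022829, chr16:37114942-37384962, - strand), tomosyn-2, which inhibits SNARE assembly, had 67, 75.4 and 77.7 CPM in alpha and 574, 434 and 528 in delta, and Stxbp6 (amisyn) was lower by 1.64. Among calcium sensors, Syt1 had 9.91, 10.6 and 7.62 CPM in alpha and 87.8, 72.6 and 79.9 in delta, and Syt5 was lower by 1.45, whereas Syt4, Syt11 and Syt16 were higher by 0.7, 0.83 and 1.43. Sv2b, a vesicle protein, had 70.4, 57.3 and 58 CPM in alpha against 5.6, 0.605 and 4.37. The core fusion gene Snap25 was higher by 0.41.

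Granule contents differed in kind. Of 22 genes of granule cargo and prohormone processing, 9 were higher and 6 lower (median 0.25). Beside Chgb and Scg2, the neuronal pentraxin Nptx2 was lower in alpha by 3.27, with 2.51, 4.16 and 2.54 CPM against 22.4, 39.6 and 27.1. Chga and Vgf were higher by 0.69 and 2.68; Vgf, a neuropeptide precursor, had 68.5, 73.4 and 75.5 CPM in alpha and 6.83, 10.4 and 16.6 in delta. The granins therefore did not move together. Cpe, the carboxypeptidase that trims prohormones, was higher by 0.97, and Pcsk2, the convertase that makes glucagon, by 0.43. Among secreted peptides, Edn3 (endothelin 3) had 102, 82.1 and 83.1 CPM in alpha and 3, 2.87 and 6.42 in delta, and the stress cytokine Gdf15 was lower by 2.84, with 2.28, 1.51 and 1.55 against 13.5, 12.7 and 12.5. Pyy was lower in alpha by 1.45 and Iapp by 1.84, while Ppy did not pass the test (log2 difference 0.24, adjusted p = 0.629).

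Of 24 peptide and amine receptors, 6 were higher in alpha and 11 lower (median -0.41), and of 26 receptors for nutrients, lipids and purines, 8 and 8 (median 0.12). The median of the second list was -0.01 without delta replicate 3, and its sign differed from the main one under 4 alternatives, so that list leaned neither way. Avpr1b, the vasopressin receptor, had 88.6, 111 and 81.1 CPM in alpha against 12.2, 6.35 and 4.37, and Vipr1 had 86.7, 70.4 and 68.1 against 14.6, 9.98 and 9.64. Oxtr, the oxytocin receptor, was higher by 0.81. Somatostatin receptors divided by subtype: Sstr2 had 10.6, 11.2 and 12.6 CPM in alpha and 1.5, 0.302 and 0.771 in delta, Sstr1 had 0, 1.13 and 0.705 against 9.7, 14.2 and 12.8, and Sstr3 was lower in alpha by 0.69. The incretin and glucagon receptors were both lower in alpha: Glp1r had 56.7, 38.7 and 59.4 CPM against 147, 150 and 152, and Gcgr 1.71, 1.26 and 0.564 against 7.37, 5.14 and 10.3. In the beta-enriched libraries Glp1r averaged 1090 CPM. Crhr2, the urocortin receptor, had 1 alpha count and 163 delta counts, a ratio of 179 (31.6 to 7100). Low counts left some sizes to single libraries: without alpha replicate 2 the log2 differences of Crhr2 and Sstr1 went from -6.97 and -4.32 to -8.73 and -5.15, without alpha replicate 1 that of Sstr1 was -3.69, and without delta replicate 1 that of Sstr2 went from 3.7 to 4.34.

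Fatty-acid receptors did not follow 1 direction. Gpr119, a receptor for lipid amides, had 72.6, 72.4 and 52.3 CPM in alpha and 8.47, 3.18 and 5.01 in delta, and Ffar1 had 40.2, 45 and 43.9 against 5.33, 1.21 and 4.75. Ffar4 was lower by 1.66, while Ffar3 had 2.73, 1.76 and 4.23 CPM in alpha and no count in delta. Adora1, the inhibitory adenosine receptor, had 3.42, 2.9 and 2.68 CPM against 22.1, 17.4 and 13.5. The purine receptor P2ry1 was lower by 2.28 and had its highest mean, 63.4 CPM, in the beta-enriched libraries.

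Transmitter-gated channels were even in number, with 6 of 20 higher and 6 lower (median 0.23). The AMPA receptor genes Gria2 and Gria3 were higher in alpha, with 369, 372 and 395 CPM against 207, 161 and 167, and 203, 230 and 265 against 73.2, 74.1 and 98. Glrb, the glycine receptor beta subunit, had 100, 78.6 and 78.4 CPM against 15.6, 15 and 19.5. The GABA-B receptor subunit Gabbr2 was higher by 3.9, but its highest mean was in the beta-enriched libraries. Of that mean it had 10.6%, 11.8% and 12.7% in alpha and 0%, 1.2% and 1.12% in delta. Grin1, the obligatory NMDA receptor subunit, was lower by 1.97, and Asic2, an acid-sensing channel, by 3.32.

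Behind the receptors, 9 of 47 genes of G protein and cAMP signalling were higher in alpha and 18 lower (median -0.08). Several phosphodiesterases, which break down cyclic nucleotides, were lower in alpha: Pde3a had 2.96, 3.9 and 5.22 CPM against 41.8, 53.7 and 44.5, Pde7b differed by -3.26, and Pde4b and Pde10a by -1.5 and -1.66. Pde4d and Pde8b went the other way, with delta means at 72.4% and 32.5% of their alpha means. Adenylyl cyclases were exchanged: Adcy8 had 0.342, 0.378 and 1.55 CPM in alpha and 45.1, 38.6 and 35.2 in delta (log2 difference -5.74, and -6.71 without alpha replicate 3), whereas Adcy1 had 7.86, 12.3 and 10.2 against 1.91, 1.06 and 1.41. Gnas, the stimulatory alpha subunit, was higher by 0.94 (2950, 3180 and 2870 CPM against 1540, 1570 and 1600), with overlapping small genes at its imprinted locus, and Gnai1, an inhibitory alpha subunit, was higher by 3.27. Rgs4 was higher by 2.02 and Rgs9 lower by 3; both speed up G protein shut-off. Of 38 calcium handling and calcium-binding genes, 4 were higher and 15 lower (median -0.24, but 0.02 on the log2(TPM + 1) scale). Ncald, a neuronal calcium sensor, had 48.2, 48.4 and 45.9 CPM in alpha and 204, 177 and 182 in delta, and Pcp4, a calmodulin regulator, was lower by 5.01 (-5.8 without alpha replicate 2).

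Growth factor signalling gave 8 genes higher and 8 lower of 30, with a median of -0.25 that was -0.06 without delta replicate 3 and 0.01 on the log2(TPM + 0.1) scale. Gfra3, the artemin co-receptor of Ret, had 42.4, 46.2 and 56 CPM in alpha and 1.91, 3.02 and 6.04 in delta (log2 difference 3.7, and 4.29 without delta replicate 3). Met, the hepatocyte growth factor receptor, had 33.6, 40.3 and 45.4 CPM against 123, 130 and 119. Ptn, pleiotrophin, a secreted ligand of the Ptprz1 phosphatase, had 0.114, 0.252 and 0.423 CPM in alpha and 39.7, 21 and 24.4 in delta, so the ligand and its receptor were both delta-high. Ghr, the growth hormone receptor, was lower by 1.07.

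Of 48 Notch, Wnt and BMP genes, 8 were higher and 13 lower (median -0.01). Wnt4 had 152, 138 and 132 CPM in alpha and 28.1, 19.5 and 35.2 in delta, and Sfrp5, a secreted Wnt antagonist, 120, 127 and 103 against 18.7, 29.6 and 31.2. The Wnt receptor genes Lrp5 and Fzd8 were lower in alpha: Lrp5 had 1.25, 0.756 and 2.4 CPM against 24.2, 32.4 and 35.1, and Fzd8 had 4.22, 3.65 and 2.82 against 29.1, 32.8 and 30.1. In the BMP branch the ligands Bmp6 and Bmp7 were lower by 4.8 and 4.05, like Bmp3, while Id3, a target of BMP signalling, was higher by 2.95. It had 25.1, 28.6 and 26.4 CPM in alpha and 5.6, 2.27 and 2.44 in delta. Id1 was higher in alpha as well, and delta replicates 1 to 3 held 0%, 24.9% and 14.1% of its alpha mean. Id2 was lower by 0.84, so it went in the opposite direction to Id1 and Id3. Among 22 matrix and integrin genes, 6 were higher and 6 lower (median -0.67, and -0.32 without delta replicate 3). Spock1 fell with Spock3, from 186, 202 and 172 CPM in delta to 14.9, 7.05 and 14.3 in alpha, and the integrins crossed over, with Itgav higher by 2.07 and Itga6 lower by 1.42.

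Transcription factors of islet and endocrine cells were called often, 17 higher and 19 lower of 59 (median -0.16). Beyond the textbook regulators, the alpha side held Onecut2, higher by 2.7, and Bach2, higher by 2.82. Neurod1, which acts in all islet endocrine cells, had 521, 490 and 507 CPM in alpha and 213, 166 and 202 in delta. The delta side held Zfhx4, a large homeodomain protein, with 77.8, 94.5 and 91.4 CPM against 6.38, 6.93 and 8.18 in alpha. Neurog3, the factor that starts endocrine differentiation in the embryo, had 38.2, 50.8 and 39.8 CPM in delta and 0.342, 1.26 and 1.13 in alpha. Sox9, a factor of ductal and progenitor cells, had 17.6, 14.4 and 25.1 CPM in delta and 0, 0.504 and 1.13 in alpha, a log2 difference of -5.16 (-4.52 without alpha replicate 1 and -6.2 without alpha replicate 3). The ductal keratin Krt19, too low to be tested, had 0.456, 0.252 and 0.705 CPM in alpha and 0, 1.06 and 6.04 in delta, and the part of ductal cells in these values was not tested. Pdx1, known from beta and delta cells, differed by -2.79 on the log2 scale, Pbx3 by -1.69, Hnf4a by -1.62 and Isl1 by -1.01. Rfx3 and Rfx6, of the RFX family, were lower by 0.61 and 0.58, the first also known to regulate cilium genes. Of 41 cilium genes, 0 were higher in alpha and 4 lower, so 9.76% were called, below the 24.3% of all tested genes.

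Among 26 imprinted genes, which are expressed from 1 parental allele, 4 were higher and 10 lower (median -0.23, but 0.04 on the log2(TPM + 1) scale). Mest (ENSMUSG00000051855, chr6:30723547-30748465, + strand), a membrane hydrolase, had 2.39, 2.52 and 1.83 CPM in alpha and 157, 163 and 145 in delta, a log2 difference of -6.09 (SE 0.17, adjusted p = 4.95e-13). Dlk1, a Notch-related ligand, had 0.342, 0 and 0.282 CPM against 15, 18.9 and 40.6. The noncoding RNAs Rian and Mirg of the Dlk1 locus were lower by 0.64 and 1.19. Grb10, an adaptor that restrains insulin and IGF receptors, was higher in alpha, with 350, 298 and 289 CPM against 109, 113 and 120. Of 26 neuronal RNA-binding protein genes, 4 were higher and 7 lower: Rbfox3 (NeuN) had 0, 0.63 and 0.423 CPM in alpha and 16, 15.3 and 14.5 in delta, and the splicing factors Mbnl1 and Mbnl2 were higher by 0.73 and 0.9. Without alpha replicate 1 and without alpha replicate 2, Rbfox3 differed by -4.79 and -6.17.

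Amino acid handling held large differences in both directions: 8 of 32 transporters were higher and 12 lower (median -0.11), and 9 of 36 enzymes higher and 11 lower (median -0.22). The split of the transporters turned on the log2(TPM + 1) scale, with 7 higher and 2 lower (median 0.12), and against a required 2-fold difference, with 5 higher and 1 lower. Slc7a8, a transporter of neutral amino acids, had 419, 442 and 403 CPM in alpha and 61, 53.4 and 50.4 in delta (log2 difference 2.94, SE 0.1, adjusted p = 4.72e-12). Slc7a2, for arginine and lysine, had 2050, 1740 and 1900 CPM against 147, 93 and 149, and Slc38a4 had 556, 470 and 443 against 68.6, 38.3 and 56.2. Slc3a2, the heavy chain shared by several transporters, was higher by 1.17, and Slc38a5, a glutamine transporter, by 2.58. On the delta side, Slc38a1 had 0.342, 0.252 and 1.83 CPM in alpha and 12.4, 9.98 and 9.64 in delta (log2 difference -3.75, and -5.08 without alpha replicate 3), and Slc6a6, the taurine transporter, was lower in alpha by 0.89.

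The enzymes that use these amino acids divided as well. Glud1 (glutamate dehydrogenase) was higher in alpha, with 280, 272 and 270 CPM against 152, 156 and 154, and Oat (ornithine aminotransferase) by 2.41. Arginine enzymes fell: Arg1, arginase 1, had 17, 18.5 and 9.74 CPM in alpha and 198, 221 and 222 in delta, and Ass1 was lower by 3.11. Maob, which degrades amines, had 114, 122 and 111 CPM against 14.6, 12.9 and 10.8, and Ddc, which makes them, was higher by 3.02. The mitochondrial folate gene Mthfd2 and the serine synthesis gene Phgdh were lower by 1.52 and 1.59.

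Of 36 genes of glycolysis and glucose handling, 10 were higher and 8 lower, with a median of 0.02. The counts were 8 and 5 without delta replicate 3, and 4 and 0 on the log2(TPM + 1) scale. Gpd2, the mitochondrial glycerophosphate dehydrogenase, had 153, 151 and 143 CPM in alpha and 32.4, 29.3 and 40.9 in delta. Hk1, hexokinase 1, was higher by 3.13, with 14.6, 16.1 and 16.8 CPM against 2.46, 0 and 2.83. Pdk4, which switches off pyruvate dehydrogenase, had 272, 197 and 243 CPM in alpha against 12, 6.05 and 13.1, and Pdk1 was higher by 1.08. Of 35 genes of the citrate cycle and pyruvate, 8 were higher and 4 lower (median 0.16).

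In the mitochondrial genome, of its 13 protein-coding genes, 11 were higher in alpha and 0 lower, with a median log2 difference of 0.61. mt-Atp6 had 4060, 4480 and 3870 CPM in alpha and 2550, 1730 and 2420 in delta, and mt-Nd1 had 5100, 4180 and 3910 against 2830, 2670 and 2620. Without delta replicate 3, 9 were higher (median 0.56), and none of the 13 passed a required 2-fold difference. On both TPM scales 2 of the 13 passed, with a median of 0.89, and mt-Atp6 and mt-Nd1 were not among them. Cholesterol synthesis and uptake had 8 of 31 genes higher and 2 lower (median 0.3), 12 and 3 without delta replicate 3, and 2 and 0 on the log2(TPM + 1) scale. Fdps, farnesyl diphosphate synthase, had 48.8, 39.4 and 42.3 CPM against 19.3, 11.5 and 22.6, and Lss and Fdft1 were each higher by 0.7. In lipid metabolism 8 of 46 genes were higher and 11 lower. The desaturases Scd1 and Fads2 were higher in alpha by 3.11 and 1.74, while the carbohydrate-sensing factor Mlxipl (ChREBP) was lower, with 16.4, 21.7 and 22.7 CPM against 141, 213 and 192.

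Redox, glycan and retinoid genes followed the same pattern of exchanges within a list. Of 35 antioxidant genes, 6 were higher and 10 lower: the glutathione transferases Gstm1 and Gstp1 fell by 1.89 and 1.45 on the log2 scale, and Cat, catalase, by 3.09 (3.72 without alpha replicate 2), while plasma-type Gpx3 was higher by 0.75. Of 35 genes of glycolipid and glycan synthesis, 12 were higher and 7 lower (median 0.15). Ugt8a, which makes galactosylceramide, had 58.4, 39.8 and 45.3 CPM in alpha and 2.73, 2.57 and 4.5 in delta, and Ndst4, a heparan sulfate sulfotransferase, had 304, 214 and 282 against 74, 51.4 and 55.8. St3gal5, the synthase of the ganglioside GM3, was lower by 1.71. Of 18 genes of vitamin A and steroid handling, 4 were higher and 6 lower: the vitamin D receptor Vdr was higher by 1.68, and the carotene-cleaving enzyme Bco1 and the deiodinase Dio1 were lower by 2.36 and 2.16.

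The circadian clock list leaned to delta, with 2 of 22 tested genes higher in alpha and 11 lower (median -0.53), and 2 and 9 without delta replicate 3. In the clock, Clock and Arntl drive genes with E-box sites, among them the repressors Per and Cry, and the factors Dbp, Tef and Hlf act at D-box sites and follow the rhythm. The labels give no hour of sorting or of death, so phase was not analysed here. To show where such sites lie, 4 promoters of lower genes are printed from the RefSeq promoter table on GRCm38.p6, each as the 250 bases before the start, 5′ to 3′ on the gene's strand. Capitals mark a D-box (TTATGTAA or TTACGTAA) in Per3 and an E-box (CACGTG) in the other 3, searched on both strands.
Per3, chr4:151044666-151044915, - strand: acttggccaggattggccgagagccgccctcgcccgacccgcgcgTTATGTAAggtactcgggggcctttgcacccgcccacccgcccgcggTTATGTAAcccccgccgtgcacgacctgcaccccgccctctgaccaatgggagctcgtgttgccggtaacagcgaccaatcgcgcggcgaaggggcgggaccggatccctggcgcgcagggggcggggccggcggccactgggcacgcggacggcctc
Tef, chr15:81802423-81802672, + strand: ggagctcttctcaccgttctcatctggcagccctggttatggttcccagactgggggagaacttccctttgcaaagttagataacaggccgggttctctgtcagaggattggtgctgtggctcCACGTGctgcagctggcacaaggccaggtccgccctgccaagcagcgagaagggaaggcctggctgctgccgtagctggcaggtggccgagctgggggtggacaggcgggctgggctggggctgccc
Cry1, chr10:85185055-85185304, - strand: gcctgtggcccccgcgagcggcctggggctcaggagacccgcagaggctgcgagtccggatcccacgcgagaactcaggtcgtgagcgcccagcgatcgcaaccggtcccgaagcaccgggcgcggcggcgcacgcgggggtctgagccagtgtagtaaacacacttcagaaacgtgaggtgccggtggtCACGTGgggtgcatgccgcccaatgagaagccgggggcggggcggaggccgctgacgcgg
Ciart, chr3:95882229-95882478, - strand: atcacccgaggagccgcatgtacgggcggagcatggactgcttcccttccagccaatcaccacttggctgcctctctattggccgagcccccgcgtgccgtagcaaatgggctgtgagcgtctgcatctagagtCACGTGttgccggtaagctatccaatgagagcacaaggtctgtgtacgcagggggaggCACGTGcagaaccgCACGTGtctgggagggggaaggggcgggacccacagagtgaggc
The D-boxes of Per3 began 205 and 158 bases before the start, the E-box of Tef 127, that of Cry1 60, and those of Ciart 116, 58 and 44. Of 9 lower genes with an entry in the table, 3 held an E-box and 1 a D-box, against 2 and 0 of 8 genes that passed no test. Over all 32851 promoters of the same length, 6.02% held an E-box and 0.931% a D-box. A match is a description of the letters and not of a bound site.

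The output factor Dbp had 25.4, 16.2 and 17.6 CPM in alpha and 64.2, 76.8 and 64.1 in delta, a log2 difference of -1.79 (SE 0.18, adjusted p = 6.61e-07). Per3 had 55.5, 47.2 and 51.8 CPM against 99, 156 and 129, and Tef 54.8, 44.7 and 43.9 against 86.6, 114 and 105. The repressor Nr1d2 (REV-ERB beta) had 147, 111 and 98.6 CPM against 228, 234 and 259. In each of these 4 genes all delta libraries lay above all alpha libraries. Bhlhe40, Hlf, Nr1d1 and Per2 were lower by 1.15, 0.92, 0.97 and 0.92. Ciart, lower by 1.51, did not pass the test without delta replicate 3 or without alpha replicate 2 or 3. Cry1, lower by 0.56, failed it without delta replicate 2 or 3 or any 1 alpha replicate, and Cry2, lower by 0.39 with overlapping groups, without alpha replicate 2 or 3 or delta replicate 1 or 2. The 2 genes higher in alpha were Clock, by 0.47, and Nfil3, the repressor at D-boxes, by 1.09. Of the 11 falls, that of Dbp alone passed against a required 2-fold difference, and on the log2(TPM + 1) scale 2 of them passed.

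**Figure D4:**
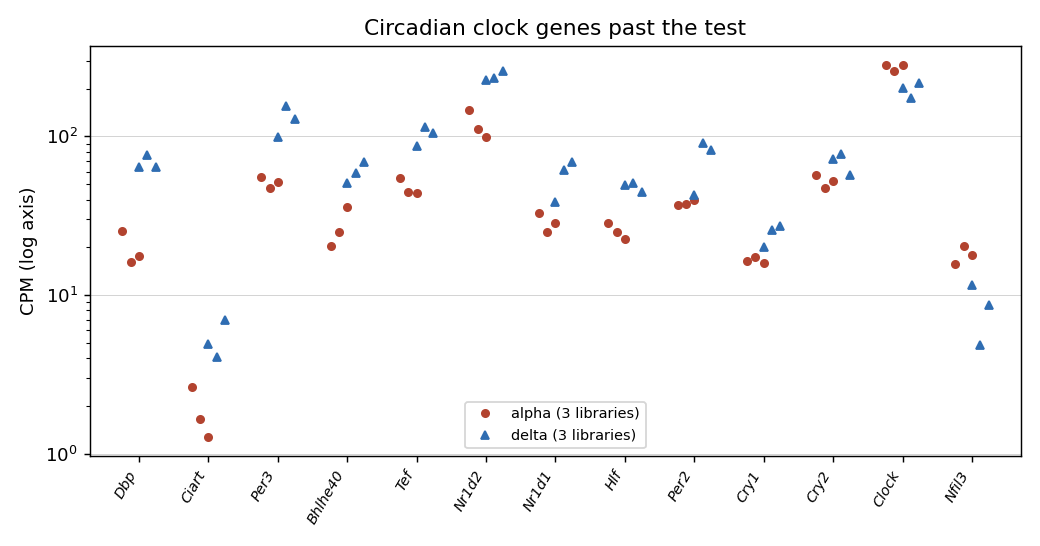
TMM-scaled CPM (log axis) per library for the 13 clock genes past the test, alpha circles and delta triangles, in order of log2 difference. The 11 genes on the left, from Dbp to Cry2, are lower in alpha and Clock and Nfil3 on the right are higher; Dbp has 25.4, 16.2 and 17.6 CPM in alpha and 64.2, 76.8 and 64.1 in delta.

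Of 34 genes of antigen presentation and interferon response, 1 was higher and 13 lower (median -0.49, and 1 and 10 with -0.37 without delta replicate 3). On the log2(TPM + 1) scale 1 was higher and 2 lower (median -0.1), and H2-D1, H2-K1, B2m and Tapbp, named next, did not pass there. H2-D1 and H2-K1, class I heavy chains with close paralogues, were lower by 0.67 and 0.43, B2m by 0.55 and Tapbp by 0.7. H2-D1 had 86.5, 92.2 and 86.3 CPM in alpha and 157, 143 and 123 in delta. Ifit3 had 1.37, 0.504 and 1.41 CPM against 8.88, 12.9 and 7.07. The 1 gene higher in alpha was Ifih1 (MDA5), a sensor of double-stranded RNA, with 189, 145 and 139 CPM against 58.7, 46.4 and 58.8. Beside these values, the immune marker list summed to 5.81, 5.92 and 6.91 CPM in alpha and 6.83, 13.5 and 12.6 in delta, with Ptprc at 0 in all 6, and its part in the result was not tested.

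Ribosomal protein genes were called in 10% of 40 cases and cilium genes in 9.76%, both below the background of 24.3%. Near it were genes of protein folding and stress of the endoplasmic reticulum, called in 23.5%, immediate early genes in 25.9% and cell cycle genes in 26.3%. In these, single genes still differed: the immediate early factor Klf4 had 30.6, 28.3 and 26.4 CPM in alpha and 2.19, 0.454 and 4.11 in delta (log2 difference 3.62, and 4.38 without delta replicate 3). Ier2, another immediate early gene, was lower by 1.73. Ccnd1 (cyclin D1) was lower by 0.84 and the cell cycle inhibitor Cdkn1a (p21) higher by 1.34. Herpud1, of the unfolded protein response, had 139, 107 and 81.8 CPM against 299, 256 and 213.

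Some differences have to be read beside the transcripts of the other subsets that each library held. Of its alpha mean, Gcg reached 6.71%, 2.16% and 5.83% in delta replicates 1 to 3. Several alpha-high genes were likewise lowest in delta replicate 2: Lpl 4.81%, 1.6% and 5.06%, Ttr 6.21%, 2.59% and 6.08%, Slc30a8 6.02%, 3.07% and 5.91%, Pdk4 5.07%, 2.55% and 5.52%, and Sv2b 9.05%, 0.977% and 7.06%. Sytl2 (2.75%, 3.19% and 0.985%) and Higd1a (1.07%, 2.76% and 2.35%) were instead highest in delta replicate 2. In the other direction, Sst in the alpha libraries was 0.122%, 0.11% and 0.426% of its delta mean, and Hhex, Ghsr, Ptprz1 and Kcnd2 were likewise highest in alpha replicate 3. Without that library the log2 differences of Sst, Hhex and Ghsr went from -8.84, -7.2 and -8.11 to -9.74, -8.67 and -10.88, and without alpha replicate 1 those of Hhex and Ghsr were -6.58 and -7.46. A group of genes higher in alpha than in delta had its highest level in the beta-enriched libraries. Ins2 stood at 10.7%, 7.81% and 8.38% of its beta mean in alpha and at 0.252%, 0.456% and 1.5% in delta. Near these shares in alpha were Ero1lb (16.5%, 11.3% and 14.5%), G6pc2 (14.1%, 8.68% and 11%), Slc2a2 (5.66%, 2.61% and 6.17%), Prlr (18.1%, 8.67% and 11.5%) and St8sia1 (6.17%, 4.35% and 6.67%). Gabbr2 was near them too, at 10.6%, 11.8% and 12.7%. Robo1 was further above the shares of Ins2, at 21.5%, 18.3% and 21.9%. Without delta replicate 3 the log2 differences of Ins2, G6pc2, Slc2a2 and St8sia1 went from 3.6, 3.44, 2.44 and 4.63 to 4.67, 4.05, 3.1 and 8.16. The part of other cells' transcripts in these differences was not tested.

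Delta replicate 3, the library with the raised acinar transcripts, was left out to see which larger differences depended on it. Of 2001 called genes at least 2-fold apart, 1812 kept their call without it. Of 1036 protein-coding genes called at 10 CPM or more and at least 2-fold apart, 22 lost their call. Those with the smallest p were Psmb8, an immunoproteasome subunit, Gbp6, an interferon-induced GTPase, Pla2g2d, a secreted phospholipase, Casp6, a caspase, Fgf2, a fibroblast growth factor, and Nr1h4, the bile acid receptor. Psmb8 had 5.24, 5.29 and 5.93 CPM in alpha and 8.47, 10.9 and 16.7 in delta, and its adjusted p went from 0.0103 to 0.0741. Gbp6 had 8.66, 11 and 11.6 CPM against 19.9, 15.6 and 27.2 (0.0117 to 0.072), and Pla2g2d 5.92, 7.68 and 8.75 against 11.7, 13.9 and 22.5 (0.0138 to 0.101). These 3 genes were highest in delta replicate 3. Casp6, Fgf2 and Nr1h4 were higher in alpha, the first pair with overlapping groups, and their adjusted p without that library were 0.0679, 0.0596 and 0.071. Other libraries also decided these 3 calls: Casp6 was lost without alpha replicate 2 or 3, Fgf2 without alpha replicate 2 or delta replicate 1, and Nr1h4 without alpha replicate 1 or 2 or delta replicate 2. Gbp6 and Pla2g2d were lost without alpha replicate 1 as well, and without delta replicate 2 the log2 difference of Fgf2 went from 1.73 to 2.63.

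The rise in delta replicate 3 was ranked among called protein-coding genes at 10 CPM or more and at least 2-fold lower in alpha. Highest were Pcdha12, Dlk1, Rasgrp1, Pla2g2d, Nfib and Psmb8, at 2.47, 2.39, 1.83, 1.75, 1.73 and 1.73 times the mean of the other 2 delta libraries. Acinar genes that were not called rose more there, such as Cpa1, with 11.9, 5.44 and 269 CPM in delta. Pcdha12, a clustered protocadherin that shares exons with its neighbours, had 6.15, 11.6 and 22 CPM in delta and 0.684, 2.27 and 3.25 in alpha. Rasgrp1, an activator of Ras, had 9.56, 18.6 and 25.7 CPM against 0.911, 0.378 and 1.69, and the transcription factor Nfib 22.8, 15.4 and 33 against 1.14, 0.881 and 2.26. Without delta replicate 3, Pcdha12, Dlk1, Rasgrp1 and Nfib still differed, by -2.12, -6.22, -3.82 and -3.75. Of the acinar list, Cela1 was above the alpha libraries in delta replicates 1 and 2 as well, at 54.9 and 39.2 CPM against 26.2, 5.92 and 6.07, but did not pass the test (adjusted p = 0.071).

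**Figure D5:**
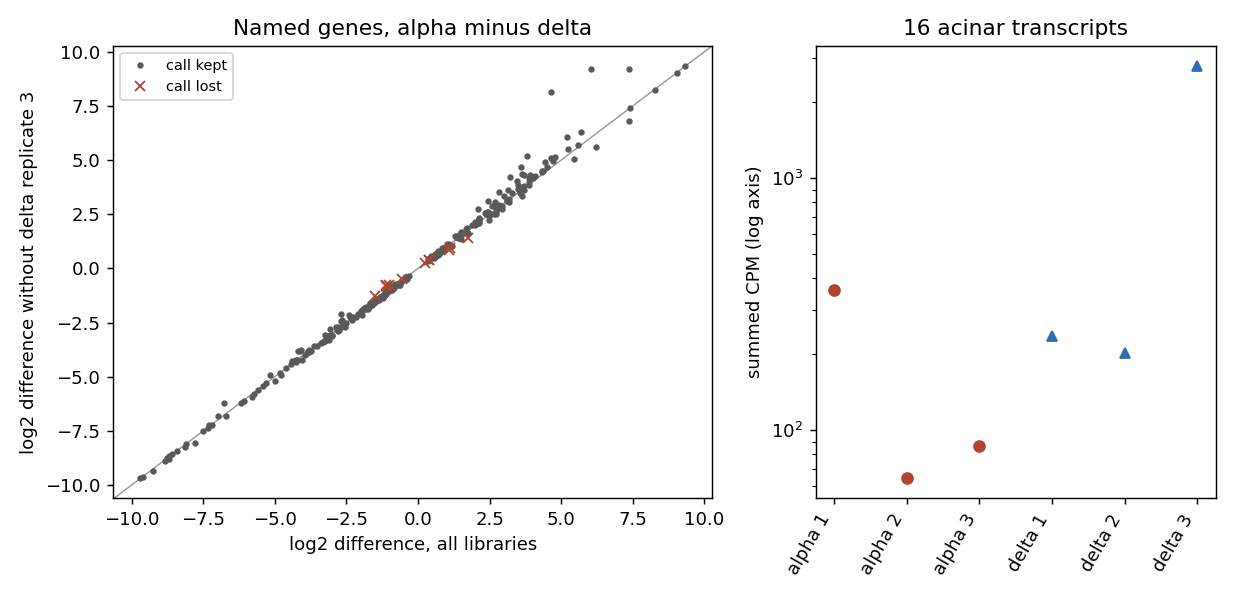
Left, log2 difference (alpha minus delta) of each named gene with all libraries (x) and without delta replicate 3 (y), with the line of equality and genes whose call was lost marked; right, summed CPM of 16 acinar transcripts per library on a log axis. Most named genes lie near the line, with Adrb1, 1110002E22Rik and St8sia1 well above it (9.22, 9.19 and 8.16 without the library), the lost calls lie between -1.51 and 1.73 on the x axis, and the acinar sum is 2770 CPM in delta replicate 3 against 64.7 to 361 elsewhere.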

How the data were processed

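RNA of islet cell subsets was sequenced in 3 libraries each of alpha-, delta- and beta-enriched cells, from random-primed, strand-specific libraries. The authors deposited 1 table per library with an expected count and a TPM value per gene. Per the submitters' processing notes, the tools were STAR 2.5.2b, RSEM, R 3.5.1 and DESeq2 1.22.1 and the build was GRCm38.p6; no source used here gives the strand setting of the counting. The deposited expected counts were rounded to whole numbers for the tests, and the deposited TPM values were used on the log2 scale as an alternative. All 55536 gene identifiers matched GENCODE M21, which gave symbols and positions.

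Groups were taken from the labels. Genes were kept by filterByExpr (15896 genes), scaled by TMM and fitted in edgeR 4.0.16 (R 4.3.3) with a robust quasi-likelihood model over all 9 libraries, which share 1 estimate of the spread, with no covariate. The contrast was alpha minus delta, and p-values were adjusted by Benjamini-Hochberg over all tested genes at 0.05. The script was tested on simulated data. Fold limits for genes with no count in a subset use a floor of 3 counts over that subset, and ratios with 1 to 3 counts carry exact 95% intervals. Alternatives were other scaling factors and filters, DESeq2 1.42.0, the 6 libraries alone, a replicate block, a required 2-fold difference, limma 3.58.1 on log2(TPM + 1) and log2(TPM + 0.1), and each library left out.

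Named genes were the 12 largest rises and falls at 10 CPM or more without overlap between the subsets (marker and iron genes left out). By the same filters and at least 2-fold apart, the 8 each way with the largest difference in CPM were added. Also named were up to 4 members of each list with the smallest p, hormone and sort genes, and up to 6 genes each that depended on delta replicate 3. The members, lists and further named genes were chosen with earlier results of these data known. Some results are not reported here.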

Additional observations from a re-analysis of the deposited data

How the results depend on the processing

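The total of 3868 genes kept its size within 1.5 times, as did the 1748 higher and 2120 lower genes, under other scaling factors, other filters, DESeq2, the 6 libraries alone and each library left out. With 1 library left out the total ranged from 3090 to 4334, the higher genes from 1342 to 2021 and the lower genes from 1691 to 2313. Against a required 2-fold difference, 1039 genes passed, 379 higher and 660 lower. On log2(TPM + 1), 1609 passed, 842 higher and 767 lower, and on log2(TPM + 0.1), 1593 passed, 851 higher and 742 lower, with the median of all genes at 0.152 and 0.22. The cause of the lower TPM counts was not tested. With the replicate block, 4294 genes passed, 2020 higher and 2274 lower. The labels do not say that a replicate number marks a shared mouse or day. Deviations of same-numbered libraries correlated by 0.159, 0.088 and 0.008 over 9042 genes, and alpha replicates 1 and 2, but not alpha replicate 3, correlated best with the delta library of their own number. Medians of the lists for protein folding, antioxidants, calcium handling, neuronal RNA-binding, lysosome, cilium, imprinted genes and amino acid transport were above 0 on both TPM scales. Depth limited the size of differences for genes near 0 in a subset.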

Other observations

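Some marker genes differed between the subsets outside the lists by function. Spp1, osteopontin, had 440, 592 and 639 CPM in alpha and 54.6, 43.1 and 137 in delta. Tspan8, a tetraspanin of ductal epithelium, had 43.7, 54.1 and 49.5 CPM in alpha and 194, 227 and 217 in delta. Tfrc, which encodes the CD71 of the sort, had 206, 187 and 232 CPM in alpha and 199, 148 and 160 in delta and did not pass edgeR's quasi-likelihood test (log2 difference 0.3, adjusted p = 0.0634). It passed with the replicate block (adjusted p = 0.0155), with upper-quartile factors, with no filter on low counts and without alpha replicate 2 or delta replicate 1, and its adjusted p ranged from 0.00419 to 1 over the alternatives.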
